A study of Mus musculus with 6 samples.

Results

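The genes described here are 40 antioxidant and glutathione genes of the mouse, among them Gstk1, in LSK cells with and without Oga. LSK cells are the Lin-Sca+Kit+ fraction of bone marrow, which holds hematopoietic stem cells and early progenitors. The genes were found by their symbol in the deposited table of loci, and where a symbol was listed more than once the longest locus was taken. All 40 were found among 53445 loci, and all 40 were among the 22032 loci with enough reads for the test. Poly(A) RNA of sorted LSK cells was sequenced from female mice of about 12 weeks on a C57BL/6 background, of which 3 were OgaVav-Cre and 3 wildtype, with at least 20000 cells for each library. In OgaVav-Cre mice the Vav-iCre transgene, active across the hematopoietic lineage, deletes a floxed Oga, the gene of the enzyme that removes O-GlcNAc from proteins. The sources used here do not say which of the 2 alleles, if any, the wildtype mice carried. Each library is 1 mouse.

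Cells turn superoxide and peroxides into harmless products in steps. Superoxide dismutases make hydrogen peroxide from superoxide, and catalase, glutathione peroxidases and peroxiredoxins then reduce it. Glutathione peroxidases draw on glutathione, a tripeptide that glutathione reductase returns to its reduced form, whereas most peroxiredoxins draw on thioredoxin. Glutathione transferases couple glutathione to reactive compounds. Many of these genes are induced by the transcription factor NRF2 (Nfe2l2), which KEAP1 holds in check and which binds antioxidant response elements. Hematopoietic stem cells are known for being sensitive to reactive oxygen species.

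To show which of these genes carry the core letters of an antioxidant response element close to their start, the RefSeq promoters (GRCm38.p6, 250 bases before to 50 bases after the start) were searched for TGACNNNGC on both strands. Of the 40 genes 34 had a promoter in the table, and 7 of the 34 (20.6%) held a match. The other 6, Hmox1, Gclc, Gsr, Gstt2, Gsta4 and Prdx6, could not be searched. Among all 27025 genes with such a promoter the share was 14%. The 7 matches are shown with 10 bases on each side, on the strand of the gene and with the match in capitals.
Gclm (chr3:122245413-122245441, plus strand): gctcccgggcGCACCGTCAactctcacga
Prdx1 (chr4:116685456-116685484, plus strand): cagggaaagcGCTGAGTCAtcccccgtag
Txnrd1 (chr10:82859104-82859132, plus strand): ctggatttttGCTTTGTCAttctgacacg
Sod1 (chr16:90220696-90220724, plus strand): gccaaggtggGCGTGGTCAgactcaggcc
Mgst1 (chr6:138140461-138140489, plus strand): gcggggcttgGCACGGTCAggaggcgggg
Gstm5 (chr3:107895802-107895830, plus strand): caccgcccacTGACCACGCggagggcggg
Nfe2l2 (chr2:75704885-75704913, minus strand): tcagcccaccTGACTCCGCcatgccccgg
A match is a run of letters and not a measured site, and no binding of NRF2 was measured here. No match was found in the promoter of Gstk1, as in most of the genes searched. Its 250 bases before the start are printed because Gstk1 is the gene whose level differed most between the genotypes.
Gstk1 (chr6:42245685-42245934, plus strand, GRCm38.p6): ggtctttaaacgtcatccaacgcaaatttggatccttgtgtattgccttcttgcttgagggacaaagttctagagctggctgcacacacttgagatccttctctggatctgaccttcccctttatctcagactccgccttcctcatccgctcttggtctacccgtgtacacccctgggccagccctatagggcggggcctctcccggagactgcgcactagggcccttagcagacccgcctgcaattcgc

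The libraries held 25190298, 26078093 and 27064389 reads on loci in OgaVav-Cre and 20600489, 19318056 and 21684561 in wildtype, so that 3 reads corresponded to 0.109 to 0.156 CPM, the reads of a locus scaled to library size. Oga, listed under its earlier symbol Mgea5, had 104, 109 and 110 reads in the OgaVav-Cre mice against 3164, 2970 and 2736 in the wildtype mice, as the labels ask. The LSK markers were present in every library, 10 of 10 above 1 CPM, with a summed level of 1044 to 2093 CPM in OgaVav-Cre and 1341 to 2189 CPM in wildtype. The sort used a lineage antibody cocktail with antibodies to Sca-1 and c-Kit, a gate that should leave out mature granulocytes, monocytes, macrophages and red cells. Genes listed as markers of other cells were present all the same. Whether they came from such cells or from the LSK cells themselves was not tested. The 11 plasma cell genes listed, all above 1 CPM in every library, summed to 12360 to 113184 CPM in OgaVav-Cre and 13146 to 56264 CPM in wildtype. The 12 erythroid genes summed to 364 to 3682 and 701 to 1114 CPM, and the 12 granulocyte and monocyte genes to 651 to 2038 and 1113 to 1260 CPM. The 8 B cell genes summed to 259 to 1255 and 243 to 867 CPM. The 7 T and NK cell genes listed summed to 22.9 to 141 and 33.7 to 83.3 CPM. OgaVav-Cre replicate 3 had the lowest LSK sum and the highest erythroid, granulocyte and monocyte, B cell, and T and NK cell sums. It also held the lowest value of the 6 libraries for 15 of the 40 genes. Genes within a list did not all move together. Between OgaVav-Cre replicate 3 and wildtype replicate 1, S100a9 was 536 against 41.4 CPM, but Mpo 367 against 647 CPM. Likewise Cd4 was 72.7 against 17.6 CPM, but Ncr1 12.4 against 30.7 CPM. In bulk RNA fewer cells of a type and less RNA per cell cannot be told apart.

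Levels were compared between genes as RPKM, reads scaled to the length of the locus and to library size. The 40 genes spanned from 0.134 RPKM for Slc7a11, the cystine importer that feeds glutathione synthesis, to 357 RPKM for Gpx1, the cytosolic glutathione peroxidase. Txnip, an inhibitor of thioredoxin, followed with 171 RPKM, and Gpx1 and Txnip together made up 51.2% of the summed RPKM of the 40 genes. A mean of 10 RPKM or more was found for 22 genes, 1 to 10 RPKM for 14 and less than 1 RPKM for 4. The leading genes of the other roles were Gstp1 (54.3 RPKM), Cat (31.8 RPKM), Prdx2 (30.3 RPKM), Hmox1 (20.9 RPKM), Gclm (12.2 RPKM) and Mgst1 (7.67 RPKM). Gstk1 ranked 31 of 40 with 2.67 RPKM.

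**Figure D1:**
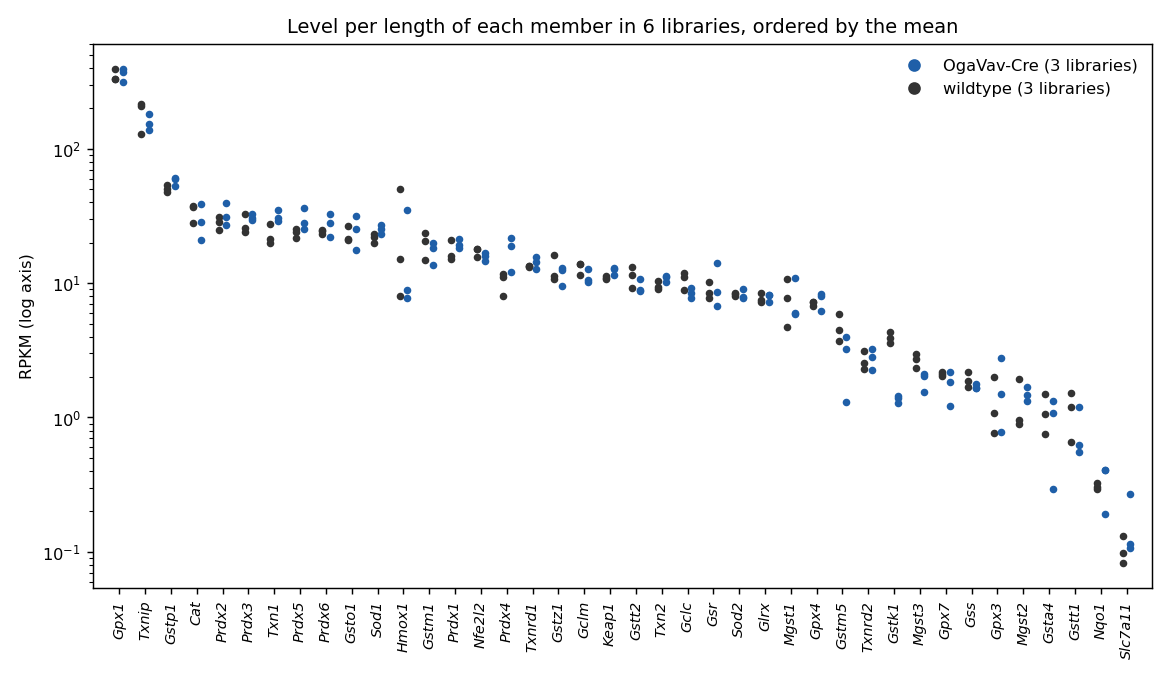
RPKM on a log axis of the 40 genes in 3 wildtype (black) and 3 OgaVav-Cre (blue) libraries, ordered from the highest mean to the lowest. Gpx1 and Txnip stand above the rest, Hmox1 is spread widely within both genotypes, and the OgaVav-Cre points of Gstk1 lie below its wildtype points.

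Each gene was then compared between OgaVav-Cre and wildtype with edgeR's quasi-likelihood test fitted on all tested loci. No gene passed an adjusted p of 0.05 together with a log2 fold change beyond 1 in either direction (0 of 40), where 0.0318% of all tested loci did. At an unadjusted p below 0.05, 4 of 40 genes (10%) were higher and 1 (2.5%) was lower in OgaVav-Cre, against 4.38% and 6.27% of all tested loci. All 3 OgaVav-Cre libraries lay above all 3 wildtype libraries for 6 genes (15%, against 7.5% of all tested loci) and below them for 1 (2.5%, against 9.97%). With 1 library left out the count at an unadjusted p below 0.05 was 3 (7.5%, without OgaVav-Cre replicate 1 or wildtype replicate 3) to 10 (25%, without wildtype replicate 1). The share of all tested loci moved as well. It was 6.51% without OgaVav-Cre replicate 1, 5.39% without wildtype replicate 3 and 14.5% without wildtype replicate 1. By fold change alone 24 genes were higher and 16 lower. The median log2 fold change of the 40 genes was 0.12, and that of all tested loci 0.0041. Among genes with a mean of 10 CPM or more, the 30 antioxidant genes had a median of 0.15 and the 11876 loci of that level a median of 0.039. Of those 30 genes 6 (20%) lay above wildtype without overlap, against 9.40% of the loci of that level.

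**Figure D2:**
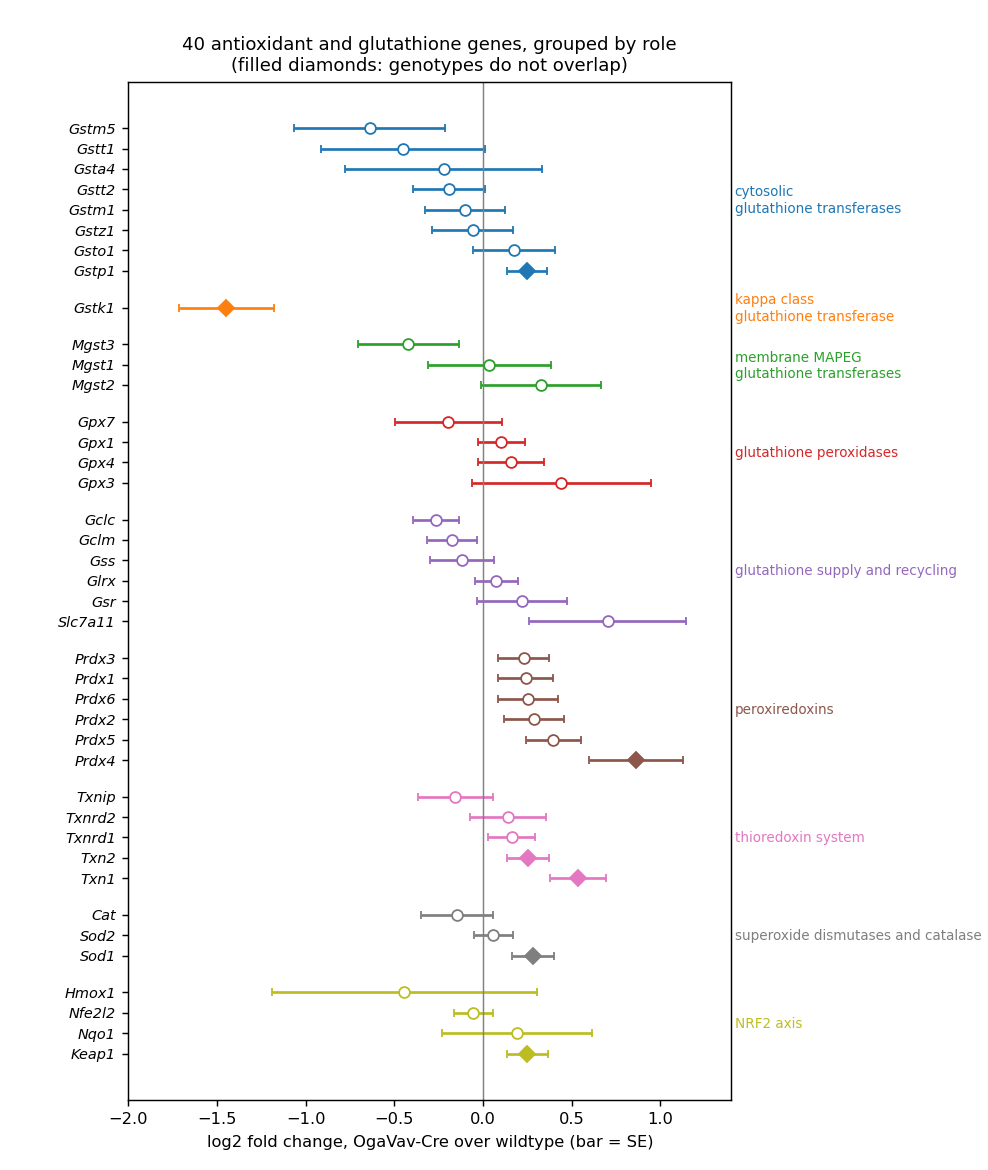
Log2 fold change of OgaVav-Cre over wildtype with its standard error for the 40 genes, grouped by role, with filled diamonds for genes whose genotypes do not overlap. Gstk1 lies at -1.45 and apart from the others, all 6 peroxiredoxins lie above 0, and 6 of the 8 cytosolic glutathione transferases lie below 0.

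Gstk1 encodes the kappa class glutathione transferase, an enzyme of mitochondria and peroxisomes that shares no recent ancestry with the cytosolic transferases. Its locus (mm9, chromosome 6, 42195934 to 42200440, plus strand) has 8 exons that span 930 bases, 681 of them coding with the stop codon, and overlaps no other locus of the table. It had 38, 38 and 37 reads in the OgaVav-Cre mice against 80, 81 and 105 reads in the wildtype mice, or 1.69, 1.5 and 1.35 CPM against 3.75, 4.2 and 4.44 CPM. The highest OgaVav-Cre library was below the lowest wildtype library, and within each genotype the 3 libraries were close. At so few reads counting noise is large, so this closeness cannot show how even Gstk1 is between mice. The mean of 1.51 ± 0.168 CPM in OgaVav-Cre was 36.6% of the 4.13 ± 0.352 CPM in wildtype (SD, n = 3 each). The log2 fold change was -1.45 with a standard error (SE) of 0.27, the only one of the 40 beyond 1 in size. With edgeR's quasi-likelihood test the unadjusted p was 0.000737 and the p adjusted over all tested loci 0.272, so Gstk1 did not pass. DESeq2's Wald test gave an adjusted p of 0.0130 and called Gstk1, 1 of 40 genes (2.5%), where it called 0.562% of the 20283 loci it gave an adjusted p. Over the other alternatives the adjusted p ranged from 0.207 to 0.862 and the log2 fold change stayed between -1.53 and -1.32. Gstk1 is on the list of changed genes that the study drew from these libraries with the DESeq2 Wald test and the same cutoffs. Its direction and its DESeq2 call here are therefore not independent evidence. Of the 8 other loci within 100 kb, 2 had enough reads for the test. They were Casp2, an initiator caspase, with a log2 fold change of -0.14 (adjusted p of 0.661 by edgeR), and Zyx, which encodes a focal adhesion protein, with -0.017 (adjusted p of 0.975 by edgeR).

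**Figure D3:**
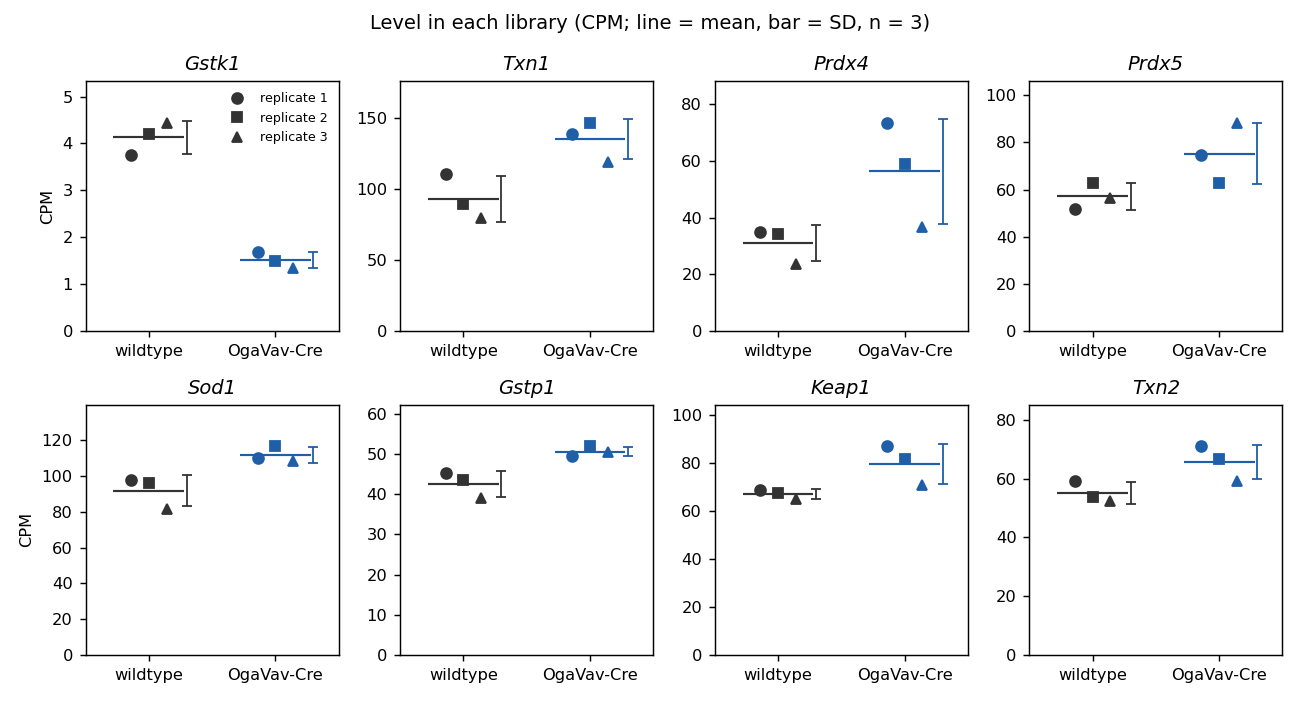
CPM of 8 genes in each library, with circles, squares and triangles for replicates 1, 2 and 3, a line for the mean and a bar for the SD (n = 3). Gstk1 is lower in every OgaVav-Cre library than in any wildtype library, Prdx5 overlaps between the genotypes, and the other 6 genes are higher in every OgaVav-Cre library.

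Of the other 11 transferases among the 40 genes none was lower in all OgaVav-Cre libraries than in all wildtype libraries. Of the 8 cytosolic glutathione transferases 6 had a lower and 2 a higher level in OgaVav-Cre, with log2 fold changes from -0.64 (Gstm5) to 0.25 (Gstp1), a median of -0.15 and adjusted p-values (edgeR) from 0.490 to 0.942. Gstp1, the pi class enzyme and the most abundant transferase, had 49.6, 51.9 and 50.4 CPM in the OgaVav-Cre mice against 45.2, 43.5 and 39.0 CPM in the wildtype mice. Its genotypes did not overlap, but the difference was small (log2 fold change 0.25, SE 0.11, adjusted p of 0.490 by edgeR). Gstp1 overlaps the loci Gstp2 and Gstp2/Gstp1 on the same strand over its whole length, so the reads of these paralogs may be shared and its level is uncertain. Gstm5 and Gsta4, an enzyme that clears the lipid peroxidation product 4-hydroxynonenal, varied 4.57-fold and 5.19-fold between the highest and the lowest library, and OgaVav-Cre replicate 3 was the lowest in both. Gstt1 and Gstt2, theta class enzymes, had log2 fold changes of -0.45 and -0.19, Gsta4 one of -0.22, Gstm1, of the mu class, -0.10, Gstz1, which also degrades tyrosine, -0.058, and Gsto1, of the omega class, 0.18. The signs for Gstm1, Gstz1, Gsta4 and Gsto1 each turned when 1 library was left out. Among the membrane-bound transferases Mgst1, the microsomal enzyme, had 14.9, 13.9 and 25.1 CPM in the OgaVav-Cre mice against 10.6, 24.8 and 17.1 CPM in the wildtype mice, with overlap between the genotypes (log2 fold change 0.036). Mgst2 and Mgst3 had log2 fold changes of 0.33 and -0.42 and also overlapped.

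Of the 4 glutathione peroxidases, which reduce peroxides at the expense of glutathione, none differed beyond the spread between mice. Gpx1 had 414, 475 and 441 CPM in the OgaVav-Cre mice against 458, 399 and 380 CPM in the wildtype mice (log2 fold change 0.10, SE 0.13). Wildtype replicate 1 was within the OgaVav-Cre range. Gpx4, which protects membrane lipids from peroxidation, had a log2 fold change of 0.16, Gpx3, the secreted enzyme, 0.44 with an SE of 0.50, and Gpx7, an enzyme of the endoplasmic reticulum, -0.19.

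Genes for the supply and recycling of glutathione were divided, 3 higher and 3 lower in OgaVav-Cre. The 3 that make glutathione were the lower ones. Gclc, the catalytic subunit of the rate-limiting glutamate-cysteine ligase, had a log2 fold change of -0.27 (SE 0.13, adjusted p of 0.508 by edgeR), Gclm, its modifier subunit, -0.17 and Gss, glutathione synthetase, -0.12. Gclm had 65.4, 75.8 and 60.9 CPM in the OgaVav-Cre mice against 79.8, 83.1 and 65.0 CPM in the wildtype mice. Wildtype replicate 3 lay among the OgaVav-Cre libraries. The sign for Gss turned without wildtype replicate 2. Slc7a11 was 1.77, 1.74 and 4.09 CPM in the OgaVav-Cre mice against 1.22, 2.02 and 1.44 CPM in the wildtype mice, and its log2 fold change of 0.70 (SE 0.44) was 0.18 without OgaVav-Cre replicate 3. Glrx, a glutaredoxin that removes glutathione from proteins, had a log2 fold change of 0.076. Gsr, glutathione reductase, had 55.6, 40.4 and 83.6 CPM in the OgaVav-Cre mice against 44.8, 51.0 and 58.2 CPM in the wildtype mice. Its lowest and highest levels were in OgaVav-Cre replicates 2 and 3. These libraries also had the lowest and highest sum of the granulocyte and monocyte genes (651 and 2038 CPM). Within that list S100a9 was highest in OgaVav-Cre replicate 3 (536 CPM) and Mpo in wildtype replicate 1 (647 CPM). The part of granulocytes and monocytes in the Gsr level was not tested.

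At the longest locus of each symbol all 6 peroxiredoxins had a higher mean in OgaVav-Cre, with log2 fold changes from 0.23 (Prdx3) to 0.86 (Prdx4) and a median of 0.27, but none passed the adjusted test. The sign was positive in 96 of 96 values, the 6 genes under all 16 fits. These fits draw on the same 6 libraries, so their agreement is not independent evidence. Prdx4, the peroxiredoxin of the endoplasmic reticulum, had 73.4, 58.7 and 36.8 CPM in the OgaVav-Cre mice against 34.8, 34.4 and 23.6 CPM in the wildtype mice. Its genotypes did not overlap, although OgaVav-Cre replicate 3 lay only slightly above wildtype replicate 1. The mean was 1.82-fold that of wildtype (log2 fold change 0.86, SE 0.27, unadjusted p of 0.0127 and adjusted p of 0.412 by edgeR). The 11 plasma cell genes summed to 113184, 43819 and 12360 CPM in OgaVav-Cre replicates 1, 2 and 3 and to 20593, 56264 and 13146 CPM in wildtype replicates 1, 2 and 3. Prdx4 and this sum shared the library with the highest value, OgaVav-Cre replicate 1, and the part of plasma cells in the Prdx4 level was not tested. With the share of reads on immunoglobulin genes as a covariate the log2 fold change of Prdx4 was 0.61 (unadjusted p of 0.0148 and adjusted p of 0.509 by edgeR).

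Prdx5, found in mitochondria, peroxisomes and cytosol, had 74.7, 62.7 and 88.4 CPM in the OgaVav-Cre mice against 51.8, 63.0 and 56.6 CPM in the wildtype mice. Wildtype replicate 2 was just above OgaVav-Cre replicate 2, so the genotypes overlapped, with a log2 fold change of 0.40 (SE 0.15, unadjusted p of 0.0329 and adjusted p of 0.445 by edgeR). Prdx5 overlaps the locus Trmt112 on the other strand over 409 bases. Prdx2, the peroxiredoxin best known from red cells, was the most abundant one per length here. It had 119, 138 and 93.7 CPM in the OgaVav-Cre mice against 105, 99.7 and 83.0 CPM in the wildtype mice. OgaVav-Cre replicate 3 was below 2 of the wildtype libraries. Prdx2 is overlapped by several loci, among them Junb/Prdx2 on the other strand, and the same symbol also names a shorter minus-strand locus with 32 to 50 reads per library. That locus had 1.42, 1.62 and 1.35 CPM in the OgaVav-Cre mice against 1.87, 2.33 and 2.12 CPM in the wildtype mice. Its values lay below wildtype without overlap, opposite in sign to the longer locus (log2 fold change -0.52, SE 0.30, adjusted p of 0.555 by edgeR). The shorter and the longer locus overlap over 351 bases, and reads there cannot be assigned to one of them. Prdx1 and Prdx3, the main cytosolic and mitochondrial enzymes, had log2 fold changes of 0.24 and 0.23, and Prdx6, which uses glutathione in place of thioredoxin, 0.25. Prdx6 is overlapped on the same strand by LOC677654.

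Thioredoxin and its relatives were measured beside the peroxiredoxins that use them. Txn1, the cytosolic thioredoxin, had 139, 146 and 119 CPM in the OgaVav-Cre mice against 111, 89.1 and 79.2 CPM in the wildtype mice. The lowest OgaVav-Cre library was above the highest wildtype one, and the mean was 1.45-fold that of wildtype (log2 fold change 0.54, SE 0.16, unadjusted p of 0.00986 and adjusted p of 0.412 by edgeR). No other locus overlaps Txn1. Txn2, the mitochondrial thioredoxin, had 70.9, 66.6 and 59.3 CPM in the OgaVav-Cre mice against 59.3, 53.6 and 52.4 CPM in the wildtype mice. The genotypes touched without overlap (59.29 against 59.28 CPM), and the log2 fold change was 0.25 (SE 0.12, adjusted p of 0.494 by edgeR). The locus AK087009 lies within Txn2 on the same strand. The thioredoxin reductases, which recharge both thioredoxins, had log2 fold changes of 0.16 (Txnrd1) and 0.14 (Txnrd2) with overlap between the genotypes. Txnip had 575, 583 and 681 CPM in the OgaVav-Cre mice against 479, 818 and 752 CPM in the wildtype mice. The wildtype libraries enclosed the OgaVav-Cre ones (log2 fold change -0.16, SE 0.21). A shorter minus-strand locus also named Txnip and the locus Gm15441 overlap it, and the reads of the 3 could be shared.

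**Figure D4:**
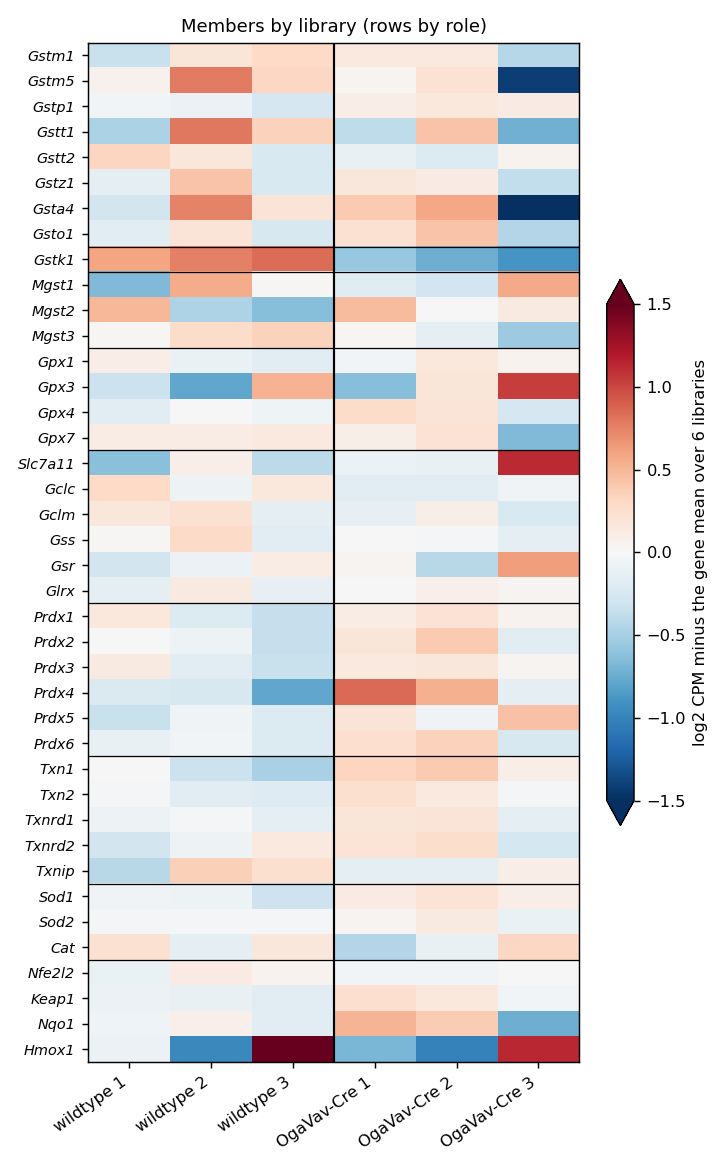
Log2 CPM of the 40 genes minus each gene's mean over the 6 libraries, with libraries as columns and genes as rows in the order of their roles, with colors ending at 1.5 in either direction. Gstk1 changes color at the border between the genotypes, the peroxiredoxins and thioredoxins are mostly red in OgaVav-Cre replicates 1 and 2, and Hmox1 differs most among libraries of 1 genotype.

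Sod1, the cytosolic superoxide dismutase, had 110, 117 and 108 CPM in the OgaVav-Cre mice against 97.8, 96.3 and 81.9 CPM in the wildtype mice. The genotypes did not overlap, and the mean was 1.22-fold that of wildtype (log2 fold change 0.28, SE 0.12, unadjusted p of 0.0446 and adjusted p of 0.460 by edgeR). Sod2, the mitochondrial enzyme, was nearly level, with a log2 fold change of 0.059 and 3 wildtype values between 54.2 and 54.4 CPM. Cat, catalase of peroxisomes, had 68.6, 86.2 and 115 CPM in the OgaVav-Cre mice against 109, 84.4 and 105 CPM in the wildtype mice. OgaVav-Cre replicates 1 and 3 lay on either side of all wildtype libraries, and the sign of the log2 fold change of -0.14 turned without OgaVav-Cre replicate 1.

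Of the NRF2 axis, Nfe2l2 itself was among the most even genes, with 69.9, 69.7 and 72.3 CPM in the OgaVav-Cre mice against 67.0, 78.5 and 74.5 CPM in the wildtype mice (log2 fold change -0.054, SE 0.11). Keap1, the adaptor that targets NRF2 for degradation, had 86.9, 81.6 and 70.6 CPM in the OgaVav-Cre mice against 68.8, 67.3 and 64.8 CPM in the wildtype mice. Its genotypes did not overlap (log2 fold change 0.25, SE 0.12, adjusted p of 0.492 by edgeR), and the locus LOC100503569 overlaps it on the other strand. Nqo1, a quinone reductase often used as a readout of NRF2, was listed at 2 loci. The longer locus (chromosome 8, 109909018 to 109912584, plus strand) is opposite to the strand of the gene and lies within Nfat5, and had a log2 fold change of 0.19 (SE 0.42). The minus-strand locus (109912125 to 109927106) had 4.12, 6.09 and 2.33 CPM in the OgaVav-Cre mice against 3.19, 3.58 and 2.58 CPM in the wildtype mice, with a log2 fold change of 0.43 (SE 0.38, adjusted p of 0.691 by edgeR). The OgaVav-Cre range enclosed all 3 wildtype libraries.

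Hmox1, the heme oxygenase that breaks down heme, had 24.3, 19.4 and 85.6 CPM in the OgaVav-Cre mice against 36.7, 19.9 and 119 CPM in the wildtype mice. Replicate 3 was the highest in both genotypes, and the 6.15-fold range between libraries was the widest of the 40 genes. The log2 fold change of -0.44 had an SE of 0.75. A list of 13 macrophage genes, chosen after the Hmox1 values were seen, summed to 116, 121 and 376 CPM in OgaVav-Cre replicates 1, 2 and 3 and to 218, 134 and 608 CPM in wildtype replicates 1, 2 and 3, with 13 of 13 genes above 1 CPM in every library. Slc40a1, the iron exporter ferroportin, had 24.6, 17.1 and 87.7 CPM in the OgaVav-Cre mice against 39.6, 27.3 and 109 CPM in the wildtype mice. Hmox1, the macrophage sum and Slc40a1 had the same 3 libraries on top, and the part of macrophages in the Hmox1 level was not tested.

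**Figure D5:**
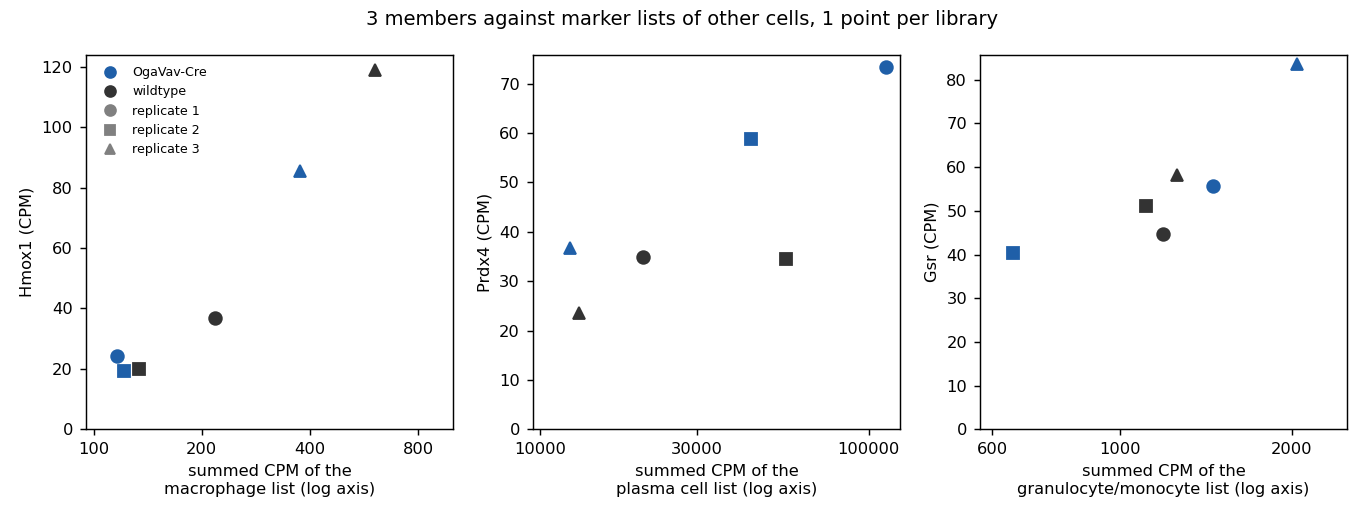
CPM of Hmox1, Prdx4 and Gsr in each library against the summed CPM of macrophage, plasma cell and granulocyte/monocyte genes on a log axis, with blue points for OgaVav-Cre, black points for wildtype and shapes for replicates. Hmox1 is highest where the macrophage sum is highest, Prdx4 is highest in the library with the highest plasma cell sum and is 34.4 CPM in wildtype replicate 2, which has the next highest sum, and Gsr is highest and lowest where the granulocyte/monocyte sum is.

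The genes also differed in how even they were within a genotype. For 18 of the 40 genes the highest of the 6 libraries was less than 1.5 times the lowest, and for 7 it was more than 3 times the lowest. Those 7 were Gstk1, with a 3.29-fold range, Prdx4, with a 3.1-fold range, Gstm5, Gsta4, Gpx3, Slc7a11 and Hmox1. The coefficient of variation of Gstk1 was 11.1% in OgaVav-Cre and 8.52% in wildtype, that of Prdx4 32.7% and 20.5%, and that of Hmox1 85.7% and 90.6%. Gstk1 had only 37 to 105 reads per library, so its low coefficients cannot show how even it is between mice. Most of the range of Gstk1 lay between the genotypes and most of that of Hmox1 within them. OgaVav-Cre replicate 2 held the highest of the 6 values for 13 genes, and wildtype replicate 3 the lowest for 13.

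A list of 91 further genes of glutathione and redox metabolism was examined for comparison, of which 74 had enough reads for the test. None passed the adjusted test with edgeR or DESeq2, and with edgeR 6 were higher and 3 lower in OgaVav-Cre at an unadjusted p below 0.05 (8.11% and 4.05%, against 4.38% and 6.27% of all tested loci). Their median log2 fold change was 0.096. The 5 genes with the smallest p were Msra, Secisbp2, Txnrd3, Blvrb and Gstt3. Msra, which repairs oxidized methionine, had 891, 1053 and 899 reads in the OgaVav-Cre mice against 561, 529 and 508 in the wildtype mice (log2 fold change 0.60, SE 0.16, adjusted p of 0.401 by edgeR). Txnrd3, a reductase for thioredoxin and glutathione, and Blvrb, a biliverdin reductase that acts downstream of heme oxygenase, had log2 fold changes of 0.51 and 0.45. Secisbp2, which is needed to insert selenocysteine into glutathione peroxidases and thioredoxin reductases, had a log2 fold change of -0.44, and Gstt3, a theta class transferase, -0.65. The genotypes did not overlap in these 5 genes, which were chosen for their small p. Over the whole list 12 of 74 genes (16.2%) were higher and 4 (5.41%) lower without overlap, against 7.5% and 9.97% of all tested loci.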

How the data were processed

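Poly(A) libraries were sequenced by the authors as single reads and aligned to mm9. The submitters' processing notes name CASAVA 1.8.2, and the study names Genomatix for its bioinformatic analysis, without saying which tool made the table of loci. The authors used the NEBNext Ultra RNA kit, and the sources used here do not say that the strand of a read was kept. The version of the aligner and whether counting used strand are not given there either. Reads of overlapping loci therefore cannot be assigned to one of them. A strand given here is that of the listed locus, not of its reads. The deposited counts are raw reads per locus and library. The deposited RPKM were made by the authors from these counts, and were used only to compare levels between genes. The deposited log2 fold changes and p-values are the authors' own comparison and were not used. The genotype and replicate number came from the labels.

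Counts were fitted in R 4.3.3 with edgeR 4.0.16 (TMM, filterByExpr, glmQLFit with legacy = TRUE, glmQLFTest), and p-values were adjusted by Benjamini-Hochberg over all 22032 tested loci. CPM use TMM library sizes. The call required a log2 fold change beyond 1 and an adjusted p below 0.05. The standard error is the fold change divided by the root of the F statistic. DESeq2 1.42.0, limma-voom (limma 3.58.1), other filters, size factors and covariates and each library left out were alternatives. The macrophage genes, the minus-strand Nqo1 locus and the fit without replicate 3 of both genotypes were added after seeing the data. The fits were tested on simulated data. The 40 genes and the lists were chosen with earlier results of these data known. Values per library are given for Gstk1, for genes at an unadjusted p below 0.05 or without overlap and for the most abundant gene of each role, and for a few others chosen after their values were seen. Of the other pathway genes, the 5 with the smallest p are named. Promoters were read from RefSeq. No amino acid sequences were used. Python 3.11.15 with pandas 2.3.3 and matplotlib 3.10.9 made the figures.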

Additional observations from a re-analysis of the deposited data

How the results depend on the processing

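Of the 40 genes 0 were called under each fit except DESeq2, which called 1, Gstk1 (log2 fold change -1.44). The count at an unadjusted p below 0.05, 5 in the report, ranged from 3 to 10 when 1 library was left out (3 without OgaVav-Cre replicate 1 or wildtype replicate 3, 10 without wildtype replicate 1). That was 7.5% to 25% of the 40 genes, against 5.39% to 14.5% of all tested loci. With replicate 3 of both genotypes left out the count was 3 (7.5%, against 8.51% of all tested loci). The count without overlap, 7 in the report, ranged from 8 to 17 with 1 library left out. Without OgaVav-Cre replicate 1 it was 8 (20% of the 40 genes, against 24.3% of all tested loci). Without OgaVav-Cre replicate 3 it was 17 (42.5%, against 33.8%). Without wildtype replicate 1 it was 16 (40%, against 35.3%), and without wildtype replicate 3 it was 9 (22.5%, against 23.2%). Leaving out replicate 2 gave 11 (27.5%) in either genotype, against 25.5% (OgaVav-Cre) and 26.5% (wildtype) of all tested loci. With replicate 3 of both genotypes left out the count was 20 (50%, against 41.2%), where fewer libraries have to be separate. The count for the other pathway genes at an unadjusted p below 0.05, 9 in the report, ranged from 3 to 13 with 1 library left out. It was 3 without wildtype replicate 3 (4.05%, against 5.39% of all tested loci) and 4 without OgaVav-Cre replicate 1 (5.41%, against 6.51%). Without wildtype replicate 1 it was 13 (17.6%, against 14.5%). Whether the replicate numbers pair the mice cannot be told from these values. The deviations of libraries with the same number correlated at -0.081, 0.26 and 0.32 for numbers 1, 2 and 3. OgaVav-Cre replicates 2 and 3 correlated best with the wildtype library of their number, but OgaVav-Cre replicate 1 with wildtype replicate 2 (0.21). With the replicate number as a block 6 genes (15%, against 12.4% of all tested loci) were at an unadjusted p below 0.05 and 0 were called. Hmox1 was 1 of the 6 (unadjusted p of 0.0417 and adjusted p of 0.390 by edgeR with the block).

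Of the 44 single genes examined beside Gstk1 and Oga, 13 changed sign in some fit. With 1 library left out the log2 fold change ranged for Gstm1 from -0.26 to 0.071, for Gstz1 from -0.18 to 0.18, for Gsta4 from -0.58 to 0.21, for Gsto1 from -0.011 to 0.39, for Mgst1 from -0.28 to 0.38, for Gpx3 from -0.083 to 0.89, for Gpx7 from -0.36 to 0.033, for Gss from -0.22 to 0.017, for Gsr from -0.096 to 0.44, for Cat from -0.36 to 0.022, for Nfe2l2 from -0.11 to 0.0024, for Nqo1 from -0.029 to 0.49 and for Hmox1 from -1.42 to 0.60. With replicate 3 of both genotypes left out it turned to 0.20 for Gstm1, 0.17 for Gsta4, -0.30 for Mgst1 and 0.042 for Gpx7. With the immunoglobulin share as a covariate it turned to 0.0075 for Cat, -0.085 for Nqo1 and 0.098 for Hmox1. The cause was not tested. None of these 13 was past the threshold in any fit.

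Depth limits 5 of the genes, which had fewer than 100 reads in every library, and 3 mice per genotype limit the precision of all. Genes just above that bound are limited too. Among them are Gstk1, with 37 to 38 reads in OgaVav-Cre and 80 to 105 in wildtype, and Slc7a11, with 26 to 112 reads.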
